A study of Homo sapiens with 9 samples.

Results

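Glioblastoma is driven by a recurring set of altered genes, and 8 of these, 3 growth factor receptors (EGFR, PDGFRA and MET), 4 tumour suppressors (NF1, CDKN2A, CDKN2B and RB1) and the telomerase gene TERT, are described here in LN229 cells before and after formate. LN229 is an established human glioblastoma cell line, and formate is the carrier of a single carbon unit in folate metabolism. The members were taken by symbol from the deposited table of 23727 genes, in which all 8 were found by their Ensembl identifiers, and 6 of the 8 had enough counts to be tested. The cells were untreated and taken at 0 h, or had received 500 µM sodium formate for 8 h or 24 h. Each of the 3 groups had 3 libraries, and the growth medium, with glucose, glutamine and fetal bovine serum, was the same for all. No untreated cells were sampled at 8 h or 24 h, and formate and time in culture cannot be told apart. The labels do not say whether the replicates were separate cultures, so p-values measure the spread between these libraries, which may be technical. All of them come from 1 line, so nothing here describes other glioblastomas.

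These genes act in 3 linked systems. EGFR, PDGFRA and MET are receptor tyrosine kinases that switch on RAS and PI3K signalling when their ligands bind, and NF1 encodes neurofibromin, which switches RAS off again. CDKN2A and CDKN2B encode INK4 proteins that inhibit the cyclin D kinases CDK4 and CDK6, CDKN2A also encodes ARF, which restrains MDM2, and RB1 encodes the pocket protein that those kinases phosphorylate and that holds back E2F factors. TERT is the reverse transcriptase subunit of telomerase, which lengthens chromosome ends and is silent in most adult cells.

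The libraries held between 22222298 and 25848242 counts, and values below are CPM, the counts of a gene scaled to a common library size, with sizes corrected by TMM factors of 0.92 to 1.06. At this depth, 3 counts in a library are worth 0.115 to 0.141 CPM. Untreated replicate 1 stood apart from the others: it had the lowest TMM factor (0.92), the highest share of counts in its 50 most abundant genes (12.7%, against 10.5% to 12.3% in the other libraries), and a chi-square per degree of freedom of 52.2 and 54.6 against its fellow replicates, which had 7.91 between them. Of the 12 glial and neural stem markers in the table, 8 were tested, with VIM (24.4% of its exons overlap genes on the opposite strand), CD44 and NES at 4899, 999 and 948 CPM on average at 0 h and SOX2 at 79.9. The 12 summed to 6189 to 8543 CPM at 0 h, 6332 to 7209 at 8 h and 5286 to 6112 at 24 h; their part in the results below was not tested. GFAP, the defining marker of astrocytes, had at most 10 counts in any library, and ALDH1L1 at most 1. The 3 leukocyte markers in the table summed to 0.269 to 0.619 CPM in every library, and of the 6 epithelial and endothelial markers in the table EPCAM, CDH1 and PECAM1 had at most 3 counts. The 6 summed to 140 to 204 CPM at 0 h, 143 to 154 at 8 h and 110 to 128 at 24 h, nearly all of it from the keratins KRT18 (120 to 184 CPM at 0 h) and KRT8 (17.4 to 19.9), and their part in the results was not tested.

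CDKN2A and CDKN2B were near zero in all 9 libraries. CDKN2A (ENSG00000147889, chromosome 9, 21967753 to 21995301, minus strand) had 1 count in untreated replicate 1 and 0 in the other 8 libraries. CDKN2B (ENSG00000147883, chromosome 9, 22002903 to 22009363, minus strand) had 1 count in untreated replicate 3 and 0 in the others. The pair are related genes that lie side by side, and how reads matching both were counted is not given in the sources used here. Neither could be tested, and no level above that of 3 counts a library was seen at any time. A count of 0 limits the RNA of these genes only to that level and says nothing of the protein. In bulk RNA, fewer cells with a transcript and less of it per cell cannot be told apart.

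The genes on either side of the pair were expressed. MTAP, which encodes the methylthioadenosine phosphorylase of the methionine salvage pathway and starts 193 kb from the CDKN2A start, had 1881 to 3273 counts per library. DMRTA1, 452 kb away on the far side, had 227 to 360 counts. Between them, CDKN2B-AS1, the long noncoding RNA read from the opposite strand, starts 0.523 kb from the CDKN2A start and had 33 to 100 counts. It overlaps 7.88% of the CDKN2A exons and has 4.25% of its own exons overlapped by CDKN2A. Counts were thus at least 1881 at MTAP and 227 at DMRTA1 and at most 1 at the INK4 pair between them. Of the 24 neighbours listed in this region, 12 were in the table and all 12 were tested; the one with fewest counts was IFNE, with 15 to 39.

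**Figure D1:**
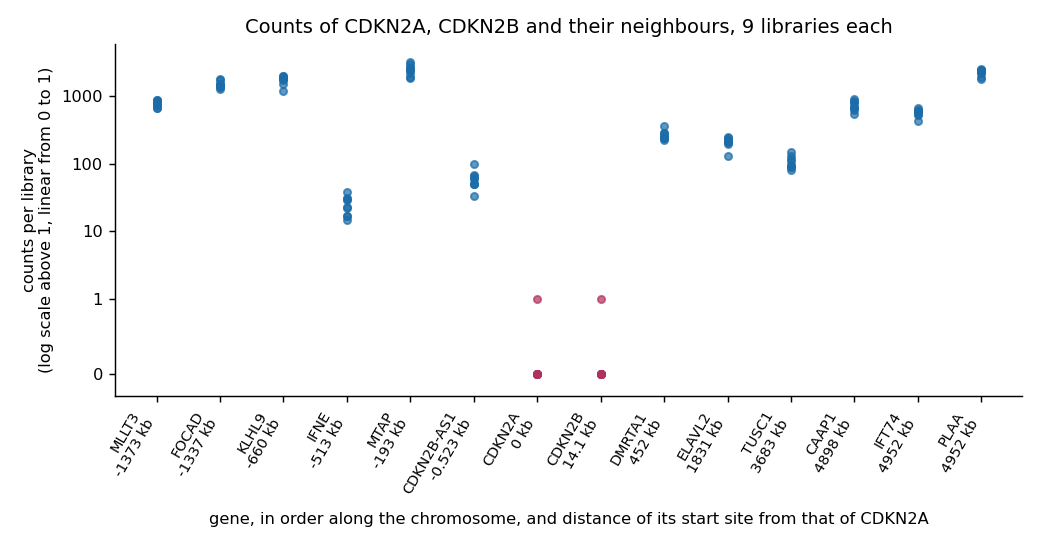
Counts per library (log scale above 1, linear from 0 to 1) of CDKN2A, CDKN2B and the 12 neighbouring genes in the table, ordered along the chromosome, with the distance of each start site from that of CDKN2A in kilobases. Each point is a library; CDKN2A and CDKN2B (red) have at most 1 count, and the neighbour with the fewest (IFNE) has 15 to 39.

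The 6 tested members differed in level by more than an order of magnitude once scaled to exon length. At 0 h, the CPM per kilobase of exon was 26.9 ± 0.662 for MET (SD, n = 3), 17.3 ± 3.16 for RB1 and 7.08 ± 0.179 for EGFR. It was 1.22 ± 0.262 for TERT, 1.08 ± 0.354 for NF1 and 1 ± 0.423 for PDGFRA. MET, RB1 and EGFR held the first 3 places in every group, and their lowest and highest libraries did not overlap at 0 h (26.1 to 27.3, 13.6 to 19.4 and 6.90 to 7.25). TERT, NF1 and PDGFRA overlapped at 0 h, so their order there is within the spread of the libraries. At 24 h, PDGFRA stood at 2.17 ± 0.317 per kilobase (1.84 to 2.47), above NF1 (1.24 to 1.56) and TERT (1.17 to 1.39) with no overlap. Divided by the longest coding transcript in place of all annotated exons, RB1 (25.1 ± 1.77) came before MET (21.8 ± 2.44) at 24 h, with overlapping libraries, and TERT was last in all 3 groups, with 1.40 ± 0.300 at 0 h. By that length PDGFRA (2.72 to 3.66) and NF1 (2.71 to 3.41) overlapped at 24 h. In CPM not scaled to length, NF1 was above PDGFRA at 24 h, with means of 38.7 and 21.1.

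**Figure D2:**
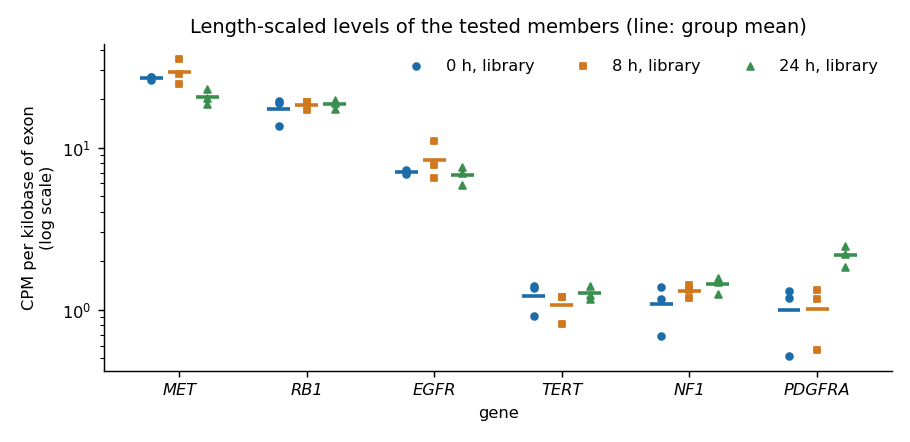
CPM per kilobase of annotated exon (log scale) of the 6 tested members at 0, 8 and 24 h; points are libraries and lines are group means of 3. MET, RB1 and EGFR lie above the other 3 genes in every library, and PDGFRA moves above NF1 and TERT at 24 h by this length. Divided by the longest coding transcript, PDGFRA and NF1 overlap at 24 h.

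The first comparison asked what 8 h of formate had changed. No member passed edgeR's quasi-likelihood test after Benjamini-Hochberg adjustment over all 15273 tested genes, where 0% of genes passed, and no member had an unadjusted p under 0.05, against 79 of all genes. DESeq2 and the fit with the replicate block also called 0 genes. The log2 fold changes of the 6 members lay between -0.18 for TERT and 0.27 for NF1. Their 95% intervals reached from -0.73 to 0.75 for PDGFRA, the widest, and from -0.16 to 0.42 for MET, so changes of those sizes could not be told from none. In none of the 6 did the libraries of 8 h lie wholly above or below those of 0 h, which 3.31% of all tested genes did.

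The second comparison asked how the members stood after 24 h against 0 h. PDGFRA was about 2.16-fold higher and MET about 1.31-fold lower, and EGFR, NF1, RB1 and TERT overlapped between the groups. None of the 6 passed on the group means, where 4.25% of all genes did (2.47% higher and 1.77% lower). With the replicate number as a block, which compares libraries of the same number, PDGFRA and MET passed, and 24.1% of all genes did (12.6% higher and 11.6% lower). Those 2 were also the members whose libraries did not overlap between the groups, as in 30.3% of all genes, with 15.9% wholly higher and 14.4% wholly lower. The median log2 fold change was 0.08 over the 6 and 0.01 over all genes.

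**Figure D3:**
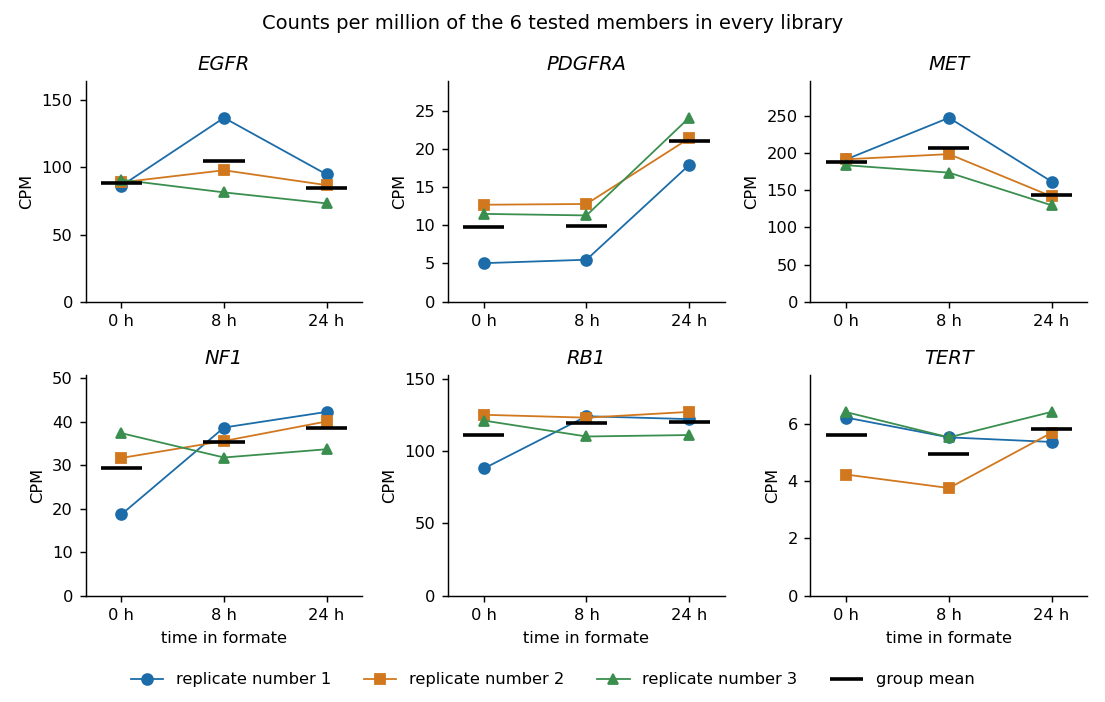
CPM of the 6 tested members in each library at 0, 8 and 24 h, with lines joining libraries of the same replicate number and bars for the group means. PDGFRA is higher in all 3 libraries of 24 h (17.9 to 24.1) than in any other, MET is lower (130 to 162), and NF1 and RB1 are lowest in untreated replicate 1.

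PDGFRA (ENSG00000134853, chromosome 4, 54229097 to 54298247, plus strand), the alpha receptor for platelet-derived growth factor, had 5.04, 12.7 and 11.5 CPM in replicates 1, 2 and 3 at 0 h. At 8 h it had 5.49, 12.8 and 11.3 CPM, and at 24 h it had 17.9, 21.4 and 24.1. Replicate 1 was the lowest library of each group, and every library of 24 h was above every library of 0 h and 8 h. The ratio of 24 h to 0 h was 3.55, 1.68 and 2.09 within replicate numbers 1, 2 and 3, while the ratio of 8 h to 0 h was 1.09, 1.01 and 0.98. The log2 fold change at 24 h against 0 h was 1.11 (standard error 0.33, 95% interval 0.38 to 1.84), with an adjusted p of 0.0759 by edgeR's quasi-likelihood test, and 2.5% of tested genes changed by as much or more. With the replicate block it was 1.19 (standard error 0.18, adjusted p 0.000956). Without replicate 1 of 8 h, which enters only through the shared spread, the adjusted p by edgeR was 0.0499. That was the 1 fit that passed when each library was left out in turn, and the adjusted p of the others reached 0.263. Without untreated replicate 1, where PDGFRA was lowest, the log2 fold change was 0.78 (adjusted p 0.14). Another annotated gene, AC058822.1, covers 15.8% of the PDGFRA exons on the same strand, and how counts were split there is not given in the sources used here.

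MET (ENSG00000105976, chromosome 7, 116672390 to 116798386, plus strand), the receptor for hepatocyte growth factor, was the most abundant member in CPM. It had 192, 192 and 184 CPM at 0 h, 248, 199 and 174 at 8 h, and 162, 142 and 130 at 24 h. The 8 h library of replicate 1 was the highest of the 9, and the 3 libraries of 24 h were the lowest. The log2 fold change of 24 h against 0 h was -0.39 (standard error 0.13, 95% interval -0.68 to -0.10, adjusted p 0.107 by edgeR), and with the replicate block it was -0.40 (standard error 0.09, adjusted p 0.0103). On the group means, 26.9% of tested genes changed by as much as MET or more. Same-numbered libraries gave 24 h to 0 h ratios of 0.843, 0.738 and 0.706.

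EGFR (ENSG00000146648, chromosome 7, 55019021 to 55211628, plus strand), the epidermal growth factor receptor, had 86.3, 88.9 and 90.8 CPM at 0 h. At 8 h it had 137, 97.9 and 81.4 CPM, and at 24 h it had 94.8, 86.8 and 73.2. The untreated libraries were close together, and replicate 1 of 8 h was again the highest of the 9, as for MET. The log2 fold change at 24 h against 0 h was -0.06 with a 95% interval of -0.43 to 0.30 (adjusted p 0.83 by edgeR), and replicate numbers 1 and 3 went in opposite directions (ratios 1.10 and 0.806).

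NF1 (ENSG00000196712, chromosome 17, 31094927 to 31382116, plus strand) had 18.7, 31.7 and 37.4 CPM at 0 h. At 8 h it had 38.7, 35.6 and 31.8 CPM, and at 24 h it had 42.3, 40.1 and 33.7. Untreated replicate 1 was the lowest of the 9 libraries, and the other 8 lay between 31.7 and 42.3. For 24 h against 0 h the log2 fold change was 0.40 (standard error 0.20, 95% interval -0.05 to 0.85, adjusted p 0.231 by edgeR; 0.151 with the block). It was 0.15 in the fit without untreated replicate 1. The annotation holds 12 NF1 pseudogenes, none of which was a row of the table, so the split of reads between NF1 and its copies is uncertain.

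RB1 (ENSG00000139687, chromosome 13, 48303726 to 48599436, plus strand) had 87.9, 125 and 121 CPM at 0 h. At 8 h it had 124, 123 and 110 CPM, and at 24 h it had 122, 127 and 111. Untreated replicate 1 was again the lowest, and the other 8 libraries spanned only 110 to 127 CPM. The log2 fold change at 24 h against 0 h was 0.11 (95% interval -0.18 to 0.40, adjusted p 0.61 by edgeR), and without untreated replicate 1 it was -0.05.

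TERT (ENSG00000164362, chromosome 5, 1253147 to 1295069, minus strand) was detected in every library, with between 86 and 155 counts. It had 6.22, 4.23 and 6.41 CPM at 0 h, 5.53, 3.76 and 5.53 at 8 h, and 5.37, 5.69 and 6.42 at 24 h. Replicate 2 was the lowest library at 0 h and at 8 h, and the groups overlapped throughout. The groups of 24 h and 0 h differed by a log2 fold change of 0.06 with a 95% interval of -0.40 to 0.51 (adjusted p 0.882 by edgeR).

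The third comparison, of 24 h with 8 h, shares the libraries of 24 h with the second and asked whether the changes at both treatment times differed. No member passed on the group means, where 4.56% of all genes did (2.84% higher and 1.72% lower). MET came closest, with a log2 fold change of -0.52 (standard error 0.13, 95% interval -0.81 to -0.23) and an adjusted p of 0.0501 by edgeR, beside the threshold of 0.05. When each library was left out in turn, MET passed in 2 fits, without untreated replicate 1 (adjusted p 0.0178) or replicate 1 of 24 h (0.039). Its adjusted p in the other fits reached 0.211. Untreated replicate 1 is in neither group of this comparison. PDGFRA had a log2 fold change of 1.10 (standard error 0.33, adjusted p 0.0814). It passed in 1 such fit, without untreated replicate 1 (adjusted p 0.0141), and its adjusted p in the other fits reached 0.299. Both had libraries that did not overlap between 8 h and 24 h, as did 34.3% of all genes, 18.2% wholly higher and 16.2% wholly lower. EGFR was -0.31 (95% interval -0.68 to 0.05), TERT 0.24 (-0.22 to 0.69), NF1 0.13 (-0.32 to 0.58) and RB1 0.01 (-0.27 to 0.30) on the log2 scale.

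**Figure D4:**
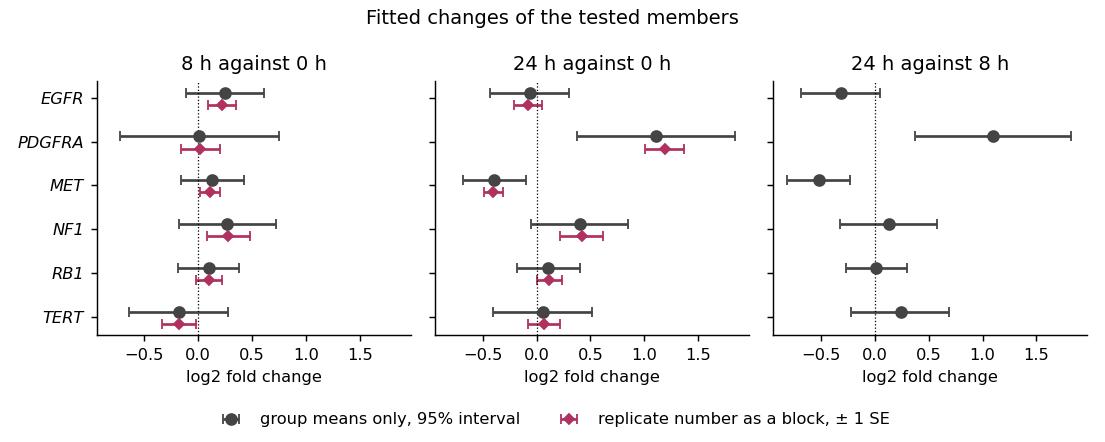
Fitted log2 fold changes of the 6 tested members in the 3 comparisons, with 95% intervals from the group means (grey circles) and, for the comparisons with 0 h, the value with the replicate number as a block ± 1 standard error (red diamonds). At 24 h the PDGFRA interval lies above 0 (0.38 to 1.84) and the MET interval below it (-0.68 to -0.10).

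Genes most like a member were looked for among 10839 tested genes with a symbol and at least 5 CPM, by the root mean square difference of log2 CPM over the 9 libraries after centring each gene on its own mean. For PDGFRA, whose own root mean square deviation was 0.73, the nearest were ZCCHC24 and TRIM9, both at 0.12. TRIM9, a ubiquitin ligase of the nervous system, had 47.2 ± 16.9, 47.4 ± 13.6 and 108 ± 9.61 CPM at 0, 8 and 24 h (SD, n = 3), and ZCCHC24 had 71.0 ± 25.9, 69.1 ± 22.4 and 148 ± 25.4. For MET, whose own deviation was 0.26, they were SH3BP4, which takes part in receptor endocytosis, at 0.05 and AMOTL1 at 0.06. SH3BP4 had 185 ± 5.69, 195 ± 25.5 and 142 ± 23.5 CPM.

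The partners of the members were read from 15 lists of 176 genes, of which 161 were in the table and 149 were tested. After 24 h against 0 h, 7 were called higher and 3 lower (6.71% of the 149, against 4.25% of all genes), and with the replicate block 30 were higher and 19 lower (32.9%, against 24.1%). At 8 h none passed. The 10 calls at 24 h were NRG1, PDGFA, LRIG1, RASGRP1, PIK3CD, PHLPP1, CCND1, E2F2, CDKN1A and TEP1. The number of calls depended on single libraries. Leaving out replicate 2 or 3 of the 24 h group left 0 of 149. Dropping untreated replicate 1 left 5 calls and dropping untreated replicate 3 left 4, and in the 8 h group the loss of replicate 2 left 6 and that of replicate 3 left 3. Those no longer called without untreated replicate 1 were NRG1, RASGRP1, PIK3CD, PHLPP1 and CCND1, with adjusted p of 0.0677 to 0.0952 by edgeR. Between 8 h and 24 h, 6 partners were called higher and 4 lower, which became 36 calls when untreated replicate 1 was dropped, 1 when replicate 3 of 8 h was, and 0 when replicate 1 of 8 h or replicate 2 or 3 of 24 h was.

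**Figure D5:**
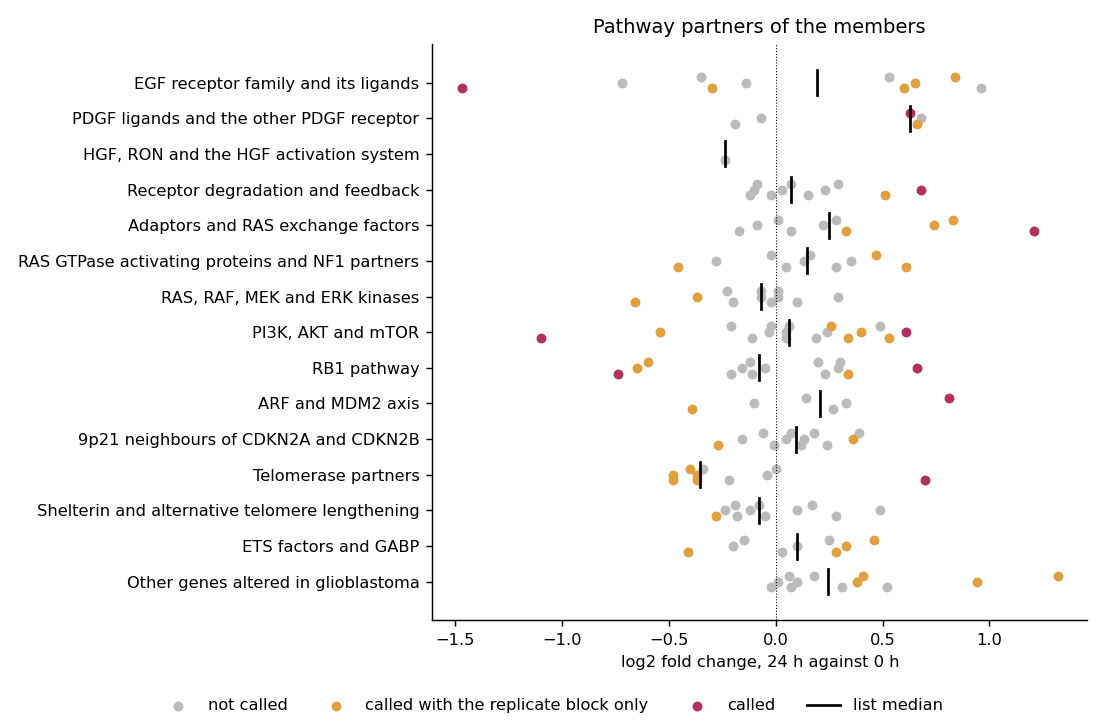
Log2 fold changes at 24 h against 0 h of the 149 tested partner genes in 15 lists; each point is a gene, coloured by whether it was called on the group means (red), with the replicate block only (orange) or not at all (grey), and black bars are list medians. Of the 149, 10 are red, among them NRG1 at -1.47 and RASGRP1 at 1.21, and the list medians lie between -0.36 and 0.63.

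Among ligands and co-receptors, a ligand of the PDGF system was higher and a ligand of the EGF receptor family was lower. PDGFA, which binds PDGFRA, had 118, 115 and 104 CPM at 0 h, 96.6, 106 and 106 at 8 h, and 151, 184 and 188 at 24 h. It rose by a log2 fold change of 0.63 at 24 h against 0 h (standard error 0.11, adjusted p 0.0199 by edgeR), and all 3 libraries of 24 h were above the other 6. It was the only called gene of the 5 in its list, whose median was 0.63. PDGFRB, the beta receptor, had 3.77, 6.46 and 6.32 CPM at 0 h and 7.27, 9.44 and 9.48 at 24 h; it passed only with the block (adjusted p 0.00713, against 0.159 without).

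NRG1, neuregulin, a ligand of ERBB3 and ERBB4, had a log2 fold change of -1.47 (standard error 0.35, adjusted p 0.0393 by edgeR), a fall. Its libraries had 47.5, 30.5 and 32.7 CPM at 0 h, 62.0, 31.7 and 32.4 at 8 h, and 20.1, 12.2 and 7.54 at 24 h, so replicate 1 was the highest of each group and no library of 24 h reached the others. Without untreated replicate 1 its log2 fold change was -1.27 and NRG1 was not called. With all libraries it was the only called gene of the 10 tested in the EGF receptor family list, whose median was 0.20. With the block, ERBB3 (log2 fold change 0.92, adjusted p 0.00136), NRG2 and TGFA (0.69, adjusted p 0.026), a ligand of EGFR, were also higher, and ERBB2 was lower (-0.29, adjusted p 0.0442). ERBB2 and NRG2 overlap genes on the opposite strand over 7.41% and 5.18% of their exons. Of the MET ligand system, 6 of 7 listed genes were in the table, and HGF, the gene of the ligand itself, was not. Only SPINT1, an inhibitor of the protease that activates hepatocyte growth factor, was tested, with -0.24 (adjusted p 0.361 by edgeR).

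Downstream of the receptors, called genes went both ways. Of those named here, RASGRP1, PIK3CD and PHLPP1 were not called without untreated replicate 1, where their log2 fold changes were 0.93, -0.85 and 0.47. LRIG1, which lowers receptor levels at the membrane, had 10.9, 13.9 and 11.6 CPM at 0 h and 19.6, 18.8 and 20 at 24 h, a rise of 0.68 (adjusted p 0.0267 by edgeR), the 1 call of 11 tested in its list; 12.9% of its exons overlap a gene on the opposite strand. RASGRP1, a RAS exchange factor, rose by 1.21 (adjusted p 0.0455) from 0.707, 1.5 and 1.5 CPM to 2.32, 2.84 and 3.52, the 1 call among 10 adaptors and exchange factors. In the PI3K list of 17 tested genes, PIK3CD, a catalytic subunit, fell by 1.10 (adjusted p 0.0352), from 37.7, 22.7 and 24.4 CPM to 16.4, 12.4 and 10.8, and PHLPP1, an AKT phosphatase, rose by 0.61 (adjusted p 0.037), from 23.3, 32.5 and 29.2 CPM to 39.3, 42.9 and 47.7. The chain of RAS, RAF, MEK and ERK genes gave no call among 11; HRAS had the smallest p, with -0.66 (adjusted p 0.136 and, with the block, 0.00528). HRAS was highest in untreated replicate 1 (71.4 CPM, against 37.7 and 34.9 in replicates 2 and 3), and without that library and no block its log2 fold change was -0.28. With the block, 2 of 11 genes passed in the degradation and feedback list, 4 of 10 among adaptors, 2 of 11 in the RAS chain and 7 of 17 in the PI3K list, beside 24.1% of all genes.

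Of the other RAS GTPase activating proteins and NF1 partners, none of 10 was called at 24 h against 0 h. Between 8 h and 24 h, RASAL2, which like NF1 stimulates RAS hydrolysis of GTP, was called, with 136, 96.5 and 86.1 CPM at 8 h and 78.3, 65.8 and 52.0 at 24 h. It fell by 0.70 (adjusted p 0.0468 by edgeR). At 0 h it had 89.7, 88.4 and 91.7 CPM.

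The RB1 pathway had its cyclin and an E2F factor among the called genes. CCND1, cyclin D1, the partner of CDK4 and CDK6, had 1100, 875 and 852 CPM at 0 h, 1149, 955 and 858 at 8 h, and 684, 576 and 427 at 24 h. It fell by 0.74 (standard error 0.18, adjusted p 0.0442 by edgeR), with no overlap, and 10.3% of its exons overlap a gene on the opposite strand. Without untreated replicate 1 its log2 fold change was -0.64 and CCND1 was not called. E2F2, a transcription factor bound by RB1, had 21.6, 25.1 and 26.7 CPM at 0 h and 44.1, 38.7 and 33.7 at 24 h, a rise of 0.66 (adjusted p 0.0272). TFDP2, a dimer partner of E2F factors, was called at 24 h against 8 h (0.37, adjusted p 0.0434). At 24 h against 0 h it had 0.34, with an adjusted p of 0.0558 and, with the block, 0.0125. In all, 2 of 14 tested genes of the list were called at 24 h against 0 h, with a list median of -0.08. CDK4 (-0.16, adjusted p 0.544; 43.2% of its exons overlap TSPAN31 on the opposite strand) and CDK6 (-0.12, adjusted p 0.677), the kinases that the INK4 proteins inhibit, were not called.

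A further INK4 gene was also without counts. CDKN2C (ENSG00000123080, chromosome 1, 50960745 to 50974633, plus strand) had 0 counts in all 9 libraries, so that 3 of the 4 INK4 genes were at or below 1 count. CDKN2D, the remaining one, had 28.8, 18.3 and 18.8 CPM at 0 h and 16.1, 12.9 and 12.9 at 24 h (log2 fold change -0.65, adjusted p 0.0653 by edgeR; 0.00163 with the block).

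On the ARF side, CDKN1A, the p53 target that encodes the inhibitor p21, had 108, 90.2 and 80.3 CPM at 0 h and 219, 134 and 135 at 24 h. It rose by 0.81 (standard error 0.18, adjusted p 0.0358 by edgeR), the 1 call of 6 genes in its list, and the log2 fold change was 0.53 without replicate 1 of 24 h. MTAP, beside CDKN2A, had 88.6, 101 and 108 CPM at 0 h and 116, 131 and 136 at 24 h. Other annotated genes cover 7.83% of its exons on the same strand. It had the smallest p of the 12 neighbours, with 0.36 (adjusted p 0.0814 by edgeR; 0.00498 with the block), and none of the 12 was called.

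Of the telomerase partners, 1 of 10 was called at 24 h against 0 h, and the median of the list was -0.36. TEP1, a telomerase-associated protein, had 23.3, 37.2 and 36.0 CPM at 0 h and 47.6, 53.4 and 55.7 at 24 h, a rise of 0.70 (standard error 0.16, adjusted p 0.0352 by edgeR). With the block, 5 of the 10 were lower, beside 11.6% of all genes, among them DKC1, dyskerin, the protein that stabilises the telomerase RNA (-0.37, adjusted p 0.0077), which shares 5.85% of its exons with small RNA genes on the same strand. DKC1, GAR1 and RUVBL2 were highest in untreated replicate 1 (215, 64.9 and 256 CPM, against 153 to 157, 39.2 to 39.5 and 164 to 166 in replicates 2 and 3); without that library their log2 fold changes were -0.21, -0.21 and -0.26, against -0.37, -0.48 and -0.48 with it. None of 11 shelterin and telomere maintenance genes was called, with ATRX nearest (0.49, adjusted p 0.165), nor any of 9 ETS and GABP factors, with ETS1 nearest (-0.41, adjusted p 0.168; 0.00764 with the block).

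Among 12 tested genes that are also altered in glioblastomas, none was called on the group means at 24 h against 0 h, where 4.25% of all genes were. With the block 4 of the 12 were higher, beside 12.6% of all genes. KIT, a receptor related to PDGFRA and its neighbour on chromosome 4, had the smallest p. It had 0.377, 1.12 and 1.55 CPM at 0 h, 0.726, 1.18 and 1.49 at 8 h, and 2.24, 2.46 and 2.98 at 24 h. Its log2 fold change was 1.32 (standard error 0.39, adjusted p 0.0719 by edgeR; 0.00416 with the block), and as for PDGFRA all libraries of 24 h were above the other 6. Of all genes, 15.9% were wholly higher at 24 h than at 0 h, and 18.2% wholly higher than at 8 h. FGFR3, another receptor tyrosine kinase, had 6.41, 14.2 and 11.1 CPM at 0 h and 16.3, 21.8 and 23.4 at 24 h (log2 fold change 0.94, adjusted p 0.0756; 0.000608 with the block). PDGFRA, KIT, FGFR3, ERBB3 and PDGFRB each had their lowest value at 0 h in replicate 1.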

How the data were processed

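Polyadenylated RNA of 9 LN229 libraries was sequenced from a stranded kit, per the labels' protocols. The authors deposited raw counts per gene, 1 column per library; bcl2fastq 2.20.0.422, STAR 2.7.4a and GRCh38 are named in the submitters' processing notes, and the counting program, annotation and strand setting are not given in the sources used here. Symbols were found for 19733 of 23727 genes; positions and exon lengths are from GENCODE 29 (98% of genes). The filterByExpr step of edgeR 4.0.16 (R 4.3.3) left 15273 genes, which were scaled with TMM and fitted with 1 mean per group over 9 libraries (glmQLFit, glmQLFTest, two-sided, Benjamini-Hochberg, threshold 0.05). The fit was tested on simulated counts with a smaller spread between libraries, no replicate effect and no outlying library. That test therefore does not cover these features of the data.

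Whether replicate numbers pair the libraries was checked by correlating deviations from group means across genes: r was 0.476, 0.432 and 0.414 between 0 h and 8 h, 0.367, 0.164 and 0.251 between 0 h and 24 h, and 0.423, 0.0367 and 0.404 between 8 h and 24 h. The numbers were taken to pair 0 h with 8 h and with 24 h, from the titles and this check, and blocked values stand beside those results where they change a call. Between 8 h and 24 h replicate 2 had r of only 0.0367, and the blocked fit of that comparison is given only among the alternatives. The block was a single factor over all 9 libraries, so the blocked values against 0 h also assume that 8 h and 24 h are paired. They depend on a pairing that this check leaves uncertain.

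The members and lists were chosen with earlier results of these data known. From each list, called genes were named, at most the 3 with the smallest p, or the nearest to a call. PDGFRB, ERBB2, ERBB3, NRG2, TGFA, CDK4, CDK6, CDKN2C, CDKN2D, DKC1, GAR1, RUVBL2, FGFR3 and the marker genes were named after their values were seen. DESeq2 1.42.0, other scalings and filters, and leaving out each library were alternatives. Sequence of the CDKN2 genes is not reported here.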

Additional observations from a re-analysis of the deposited data

How the results depend on the processing

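All alternatives gave 0 genes at 8 h. At 24 h against 0 h (649 genes, 0 members and 10 partners called), the replicate block gave 3687, 2 and 49, the block without untreated replicate 1, chosen after seeing the data, 3815, 2 and 48, DESeq2 1656, 1 and 25, and a fit of only the groups compared 124, 0 and 0. Leaving out each library gave 0 to 899 genes, 0 to 1 members and 0 to 12 partners. Between 8 h and 24 h (696, 0 and 10), the block gave 3130, 2 and 38, the block without untreated replicate 1 5432, 3 and 76, DESeq2 1458, 2 and 18, a fit of only the groups compared 1787, 2 and 27, and the table without a filter called 1 member; leaving out each library gave 0 to 2545, 0 to 2 and 0 to 36. Genes were 0 without replicate 2 or 3 of 24 h in both comparisons, and without replicate 1 of 8 h in the second. The third member called there was EGFR (-0.30, adjusted p 0.00865). With DESeq2, PDGFRA passed at 24 h against 0 h (adjusted p 0.0156).

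PDGFRA and MET kept their direction at 24 h in every alternative. Small changes turned. In the block without untreated replicate 1, PDGFRA, NF1 and RB1 were -0.13, -0.04 and -0.08 at 8 h, and RB1 -0.08 at 24 h. With total counts only, EGFR was 0.01 at 24 h against 0 h. RB1 at 24 h against 8 h was -0.002 with median-ratio size factors, with DESeq2 and in the block without untreated replicate 1. Leaving out each library at 8 h gave -0.29 to 0.31 for PDGFRA, -0.01 to 0.25 for MET and -0.05 to 0.19 for RB1. At 24 h against 0 h it gave -0.15 to 0.03 for EGFR, -0.05 to 0.20 for RB1 and -0.12 to 0.16 for TERT, and at 24 h against 8 h -0.05 to 0.06 for RB1. The cause was not tested. By CPM not scaled to length, or by the longest coding transcript, a length chosen after seeing the data, PDGFRA moved from place 6 to 5, NF1 from 5 to 4 and TERT from 4 to 6 at 0 h. Below 3 counts a library, no level can be told from 0.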

Other observations

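The stretch of chromosome 1 around CDKN2C was read after its absence of counts had been seen. FAF1, which starts 0.482 kb from CDKN2C on the opposite strand and encodes a FAS-associated factor, had 0 to 2 counts per library. On the other side of CDKN2C, RNF11, a ubiquitin ligase 276 kb away, had 1833 to 2947 counts. TTC39A, 384 kb away, had 0 to 2, and EPS15, an endocytic adaptor of EGFR 559 kb away, had 997 to 2161. OSBPL9 and NRDC, further on, had 1464 to 2054 and 6489 to 8216; 10.5% of the NRDC exons overlap genes on the opposite strand. CDKN2C and FAF1 thus had at most 2 counts, with expressed genes read on 1 side. The genes listed beyond FAF1, DMRTA2 and ELAVL4, were not in the table, so no counts were read on that side past FAF1.

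A pair of glial markers was called at 24 h against 0 h by edgeR's quasi-likelihood test, of 8 tested, beside 4.25% of all genes. S100B, a calcium-binding protein of astrocytes, had 84.4, 177 and 129 CPM at 0 h, 59.2, 174 and 133 at 8 h, and 288, 335 and 395 at 24 h, a log2 fold change of 1.38 (standard error 0.34, adjusted p 0.046). SLC1A3, a glutamate transporter of astrocytes, had 0.848, 1.65 and 1.15 CPM at 0 h and 2.37, 4.31 and 4.39 at 24 h, a rise of 1.58 (standard error 0.32, adjusted p 0.0277). Neither S100B nor SLC1A3 was called without untreated replicate 1, where their log2 fold changes were 1.13 and 1.37 (adjusted p 0.103 and 0.0562 by edgeR). GFAP stayed at or under 10 counts in every library. On the group means NES (0.02), OLIG1 (0.87, with 4 to 16 counts) and OLIG2 (0.52) were not called. Genes on the opposite strand overlap 8.83% of the OLIG1 exons. With the block, 3 of the 8 were higher and 2 lower, beside 12.6% and 11.6% of all genes. The lower ones were VIM and CD44, with mean levels of 4899 and 999 CPM at 0 h and 3551 and 769 at 24 h. Their log2 fold changes were -0.45 and -0.37 (adjusted p 0.00858 and 0.0069 by edgeR). VIM was -0.26 without untreated replicate 1 and no block, against -0.46 with it. SOX2 went from 79.9 to 69.4 CPM (adjusted p 0.144 with the block). Of the epithelial and endothelial markers, VWF was called, with 0.308 to 0.565 CPM at 0 h and 1.03 to 1.57 at 24 h (log2 fold change 1.60, adjusted p 0.0304), while KRT18 was lower with the block (-0.55, adjusted p 0.00333) and PECAM1 had at most 3 counts in any library.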
